A study of Arabidopsis thaliana with 12 samples.

Results

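Of 24 Arabidopsis thaliana loci listed as the thaumatin and osmotin family, 3 are described here in full: AT2G28790, an osmotin-like gene, ATLP-1 (AT1G18250), a thaumatin-like gene, and OSM34 (AT4G11650), the osmotin gene. Each was taken as the probe set that is listed for exactly that gene, so the members are 3 of the 22810 probe sets on the array, and all 3 passed the filter on dim signals, a mean of at least 32 over the arrays. Leaf RNA was measured on 12 Affymetrix ATH1 arrays in 4 groups of 3, each array standing for a pool of 40 plants. The groups are plants with an RNA interference construct against SPH1 at growth stage 1.14, Col-0 at stage 1.14, the RNAi plants at stage 1.05 and Col-0 at stage 1.05. Stage numbers count rosette leaves, so stage 1.14 is the older rosette, and the study asked which leaf transcripts depend on SPH1, a small secreted S-protein homologue. The RNAi plants are in the Col-0 background, and every plant was raised under glass on compost with the treatment the labels name as Intersept (20 °C, days of 16 h, humidity of 80%). The labels name neither the construct's promoter nor how many independent lines were used, and they do not say whether the pools of a group were grown apart, so a p-value speaks only of the spread among these pools, which may be technical. SPH1 itself is not analysed here.

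Thaumatin, after which the family is named, is a sweet protein of a West African fruit, and osmotin was first found in tobacco cells adapted to salt. Both belong to the fifth class of pathogenesis-related proteins, compact proteins held together by many disulfide bridges and secreted or sent to the vacuole. Some members act against fungi, and transcripts of the class respond to pathogens, ethylene, abscisic acid and water stress. Other members are active in growing organs without any attack.

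AT2G28790 and ATLP-1 were chosen because they were higher in SPH1 RNAi than in Col-0 at stage 1.14, and no separate reason is recorded for OSM34, so for all 3 the values of that comparison, and of every comparison that shares its arrays, are a description without a test. Only SPH1 RNAi against Col-0 at stage 1.05 compares none of those arrays, and it is tested. Its SE, interval and p-value still rest on a spread estimated from all 12 arrays, those of stage 1.14 included. Average array background ranged over 68.5 to 136.5, the median signal over 37.8 to 48.3, and precision is limited by having 3 arrays a group. The leaf markers RCA and PRK, both enzymes of the Calvin cycle or its activation, were at 992.6 or above on every array. SPH1 RNAi at stage 1.14 replicate 1 stood apart, correlating at 0.894 and 0.904 with its group's other arrays, which correlated at 0.969 with each other (log2 values across probe sets). The titles of replicates 2 and 3 of that group carry the word repeat, with no explanation. Replicate 3 lacks the tag for the RNAi construct and was grouped by its source name.

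In the older rosettes all 3 genes were higher in SPH1 RNAi than in Col-0 on every array. AT2G28790 had signals of 1200.8, 273.4 and 292.8 in SPH1 RNAi at stage 1.14, against 66.5, 51.6 and 62.8 in Col-0. ATLP-1 had 288.7, 98.4 and 122.9 in SPH1 RNAi, against 40.6, 18.3 and 41.4 in Col-0. OSM34 had 492.8, 211.8 and 280.0 in SPH1 RNAi, against 154.8, 27.5 and 131.4 in Col-0. In each gene the lowest RNAi array lay above the highest Col-0 array, and at this stage each gene was highest on SPH1 RNAi replicate 1, the array that stood apart. Over all tested probe sets 17.9% were separated in this direction and 10.3% in the other, and in limma 6.76% passed either way. The members were partly chosen by this comparison, so nothing is read from those shares.

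**Figure D1:**
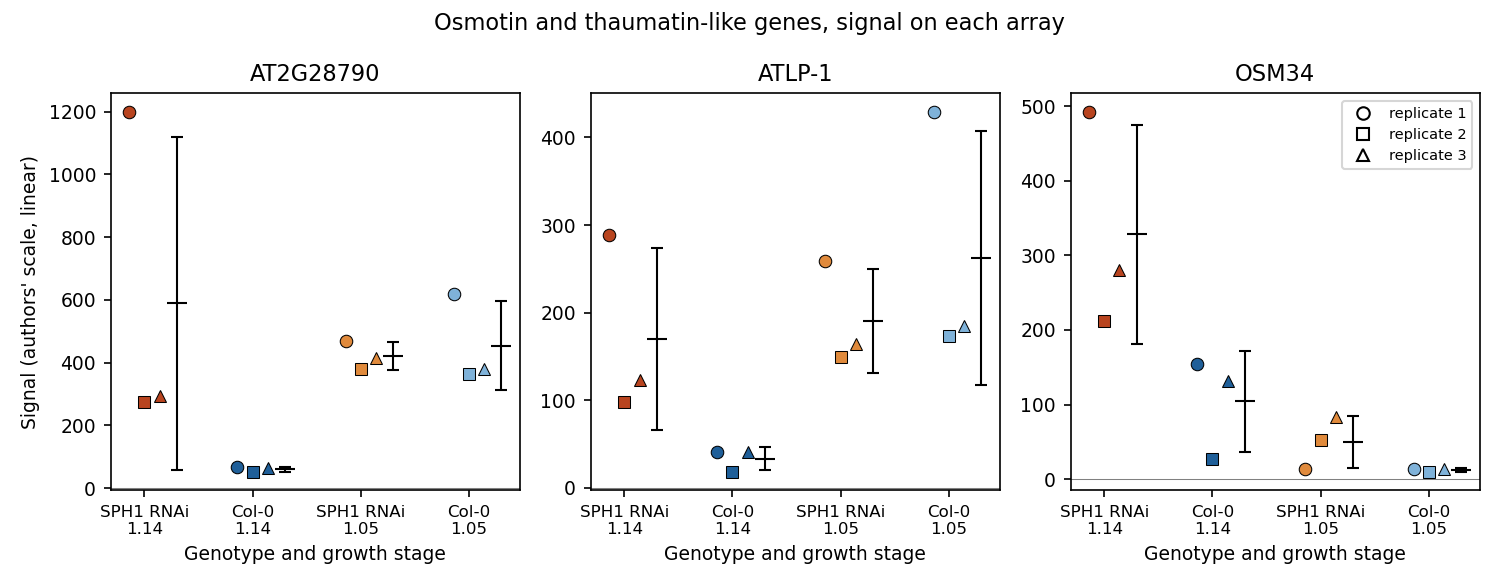
Signal of AT2G28790, ATLP-1 and OSM34 on each of the 12 arrays, on the authors' linear scale, by genotype and growth stage. Points are arrays, and each black mark beside them is the group mean with its SD (n = 3). At stage 1.14 the SPH1 RNAi arrays lie above the Col-0 arrays in all 3 genes, with replicate 1 of SPH1 RNAi the highest, at 1200.8 in AT2G28790.

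The mean signal of AT2G28790 at stage 1.14 was 589.0 ± 529.9 in SPH1 RNAi and 60.3 ± 7.8 in Col-0 (SD, n = 3 each). Its log2 change was 2.65 ± 0.43 (SE), and 1.98 without SPH1 RNAi replicate 1, where the RNAi mean is 283.1 ± 13.7 (SD, n = 2). All log2 changes here are of the signal plus 16, an offset that keeps dim signals from dominating, and they come from limma's fit to all 13263 tested probe sets. ATLP-1 averaged 170.0 ± 103.5 in SPH1 RNAi and 33.4 ± 13.1 in Col-0, a log2 change of 1.81 ± 0.40, and of 1.39 without replicate 1, where the RNAi mean is 110.7 ± 17.3 (n = 2). OSM34 averaged 328.2 ± 146.6 in SPH1 RNAi and 104.6 ± 67.8 in Col-0, a log2 change of 1.66 ± 0.51, and of 1.33 without SPH1 RNAi replicate 1. Its value rested more on a Col-0 array: without Col-0 replicate 2, which had 27.5, the log2 change was 1.03. Of all tested probe sets 0.0603% had a larger absolute change than AT2G28790 in this comparison, 0.256% a larger one than ATLP-1 and 0.339% a larger one than OSM34, as a description of how they were picked. Without SPH1 RNAi replicate 3, the array lacking the tag, the log2 changes were 2.96, 1.96 and 1.72 in the same order of genes. In these pooled leaves, fewer cells of a type and less RNA per cell cannot be told apart.

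In the young rosettes none of the 3 passed the test between the genotypes, and the order of the groups was not the one seen in the older rosettes for AT2G28790 and ATLP-1. AT2G28790 had 469.5, 379.6 and 414.7 in SPH1 RNAi at stage 1.05, against 618.7, 364.7 and 379.6 in Col-0. Its log2 change was -0.07 ± 0.43 (95% confidence interval -0.99 to 0.85, limma adjusted p = 0.951). The groups overlapped, and the interval leaves room for a change in either direction. ATLP-1 had 258.6, 149.6 and 164.0 in SPH1 RNAi, against 429.5, 172.9 and 184.9 in Col-0, with a log2 change of -0.35 ± 0.40 (interval -1.21 to 0.51, limma adjusted p = 0.673). Here too the groups overlapped, and Col-0 replicate 1 was the highest array for both genes. Without that array the log2 change was 0.17 in AT2G28790 and 0.05 in ATLP-1, so neither direction at stage 1.05 holds.

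OSM34 had 14.3, 53.0 and 83.2 in SPH1 RNAi at stage 1.05, against 13.5, 9.8 and 13.5 in Col-0. The RNAi arrays all lay above the Col-0 arrays, replicate 1 by only 0.8 of a signal unit, and 15.9% of all tested probe sets were separated in that way. The log2 change was 1.07 ± 0.51 (interval -0.03 to 2.17, limma adjusted p = 0.264), and it ranged from 0.70 to 1.55 with single arrays left out, without passing. With limma's array weights in the fit it passed (log2 change 1.38, adjusted p = 0.0287). With those weights 1753 of the 13263 tested probe sets passed at this stage, against 707 without them. In the main fit, without weights, 0 of the 3 members passed in limma at stage 1.05, where 5.33% of all tested probe sets passed. At an unadjusted p under 0.05 the members' count was also 0, where 20% of all tested probe sets were under it. The average background of the arrays did not overlap between the genotypes at this stage, at 68.5 to 79.5 in SPH1 RNAi and 86.4 to 118.9 in Col-0, and its part in the low OSM34 signals was not tested.

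By growth stage the 3 genes fell into 2 kinds. In Col-0 the signals of AT2G28790 and ATLP-1 were lower in the older rosettes on every array, with stage 1.14 means of 13.3% and 12.7% of the stage 1.05 means. In SPH1 RNAi the same percentages were 139.8% for AT2G28790 and 89.1% for ATLP-1, and 67.2% and 58.0% without replicate 1 of stage 1.14. The log2 change from stage 1.05 to stage 1.14 was -2.59 ± 0.43 in AT2G28790 and -2.42 ± 0.40 in ATLP-1 for Col-0 plants. The corresponding SPH1 RNAi values were 0.13 ± 0.43 in AT2G28790 and -0.25 ± 0.40 in ATLP-1. The RNAi value of AT2G28790 changed sign to -0.54 without SPH1 RNAi at stage 1.14 replicate 1, and that of ATLP-1 was 0.03 without replicate 2 and -0.68 without replicate 1. The older RNAi arrays overlapped the younger ones in both genes, but only through replicate 1 of stage 1.14. Replicates 2 and 3 lay below every younger RNAi array, at 273.4 and 292.8 against 379.6 to 469.5 in AT2G28790. In ATLP-1 they were at 98.4 and 122.9, against 149.6 to 258.6. These stage values carry no test for the members, and over all tested probe sets 10.2% passed with stage in SPH1 RNAi and 44.6% in Col-0.

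OSM34 went the other way, being higher in the older rosettes of each genotype on every array. The stage 1.14 mean was 654.2% of the stage 1.05 mean in SPH1 RNAi, 490.2% without replicate 1 of stage 1.14, and 852.4% in Col-0. The log2 change with stage was 2.46 ± 0.51 in SPH1 RNAi and 1.87 ± 0.51 in Col-0. So the order of the group means of OSM34 ran from SPH1 RNAi at stage 1.14 (328.2) over Col-0 at stage 1.14 (104.6) and SPH1 RNAi at stage 1.05 (50.2 ± 34.5, SD, n = 3) to Col-0 at stage 1.05 (12.3 ± 2.1). The middle neighbours of that order overlapped, since Col-0 at stage 1.14 replicate 2 was at 27.5. For AT2G28790 and ATLP-1 only Col-0 at stage 1.14 was apart from the other 3 groups, whose arrays overlapped each other with all arrays counted. Without SPH1 RNAi at stage 1.14 replicate 1, that RNAi group lay between, above Col-0 at stage 1.14 and below every stage 1.05 array. Its arrays were then at 273.4 and 292.8 in AT2G28790, where the lowest stage 1.05 array had 364.7. In ATLP-1 they were at 98.4 and 122.9, where the lowest had 149.6. The stage 1.05 means were 421.3 ± 45.3 in SPH1 RNAi and 454.3 ± 142.5 in Col-0 for AT2G28790, and 190.7 ± 59.2 and 262.4 ± 144.8 for ATLP-1, SPH1 RNAi before Col-0 (SD, n = 3). Of all tested probe sets, 15.8% were higher at stage 1.14 without overlap in SPH1 RNAi and 13.8% lower, and in Col-0 30.6% were higher and 28% lower.

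The other loci of the family show which of these patterns the members share. Of the 24 loci, 20 have a probe set for that gene alone, and 12 of them, members included, were bright enough to be tested. The 8 measured loci that were not tested, AT1G19320, AT1G75050, AT1G77700, AT2G17860, AT2G24810, AT4G36000, AT5G02140 and AT5G40020, had means from 1.82 to 28.1 over the arrays. The remaining 4, among them PR5, the salicylate marker of the class, are not analysed here. AT1G70250 has a second, dim probe set with a mean of 14.5, and the brighter one is used.

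Among the 9 tested loci besides the members, 2 rose and 0 fell in SPH1 RNAi at stage 1.14 (limma adjusted p under 0.05), where 4.7% of all tested probe sets rose and 2.06% fell. The first was AT4G38660, with 253.1, 98.3 and 106.7 in SPH1 RNAi, against 59.2, 42.5 and 50.3 in Col-0. Its log2 change was 1.23 ± 0.28 (limma adjusted p = 0.0228), and 0.84 (adjusted p = 0.0285) without SPH1 RNAi replicate 1. In limma the call was lost without Col-0 replicate 2 (adjusted p = 0.0706) or 3 (0.0682), and in a fit of the 6 arrays of that stage (0.0953). The second was AT1G73620, with 61.9, 47.1 and 42.1 in SPH1 RNAi, against 24.9, 18.4 and 22.4 in Col-0. Its log2 change was 0.80 ± 0.14 (limma adjusted p = 0.00906), it kept its call with any single array left out (adjusted p from 0.0102 to 0.0345), and it lost it in the fit of 6 arrays (0.0595). The other 7 loci did not pass, with log2 changes from -0.68 to 0.39. The lowest of these was AT1G75800, whose RNAi arrays (323.1, 276.0 and 217.9) all lay below the Col-0 arrays (439.0, 471.1 and 414.3, limma adjusted p = 0.124, and 0.0396 without SPH1 RNAi at stage 1.05 replicate 1). The median log2 change of the 9 was 0.03, against 0.04 over all tested probe sets.

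**Figure D2:**
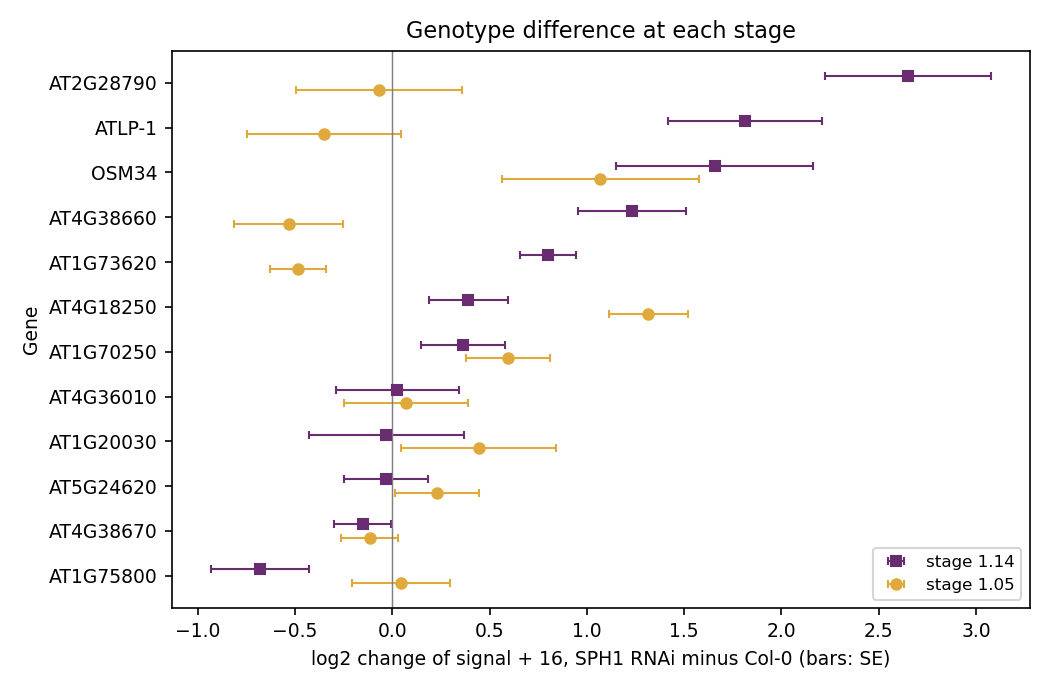
The log2 change of the signal plus 16, SPH1 RNAi minus Col-0, for the 12 tested loci of the family at stage 1.14 (squares) and stage 1.05 (circles), with bars of 1 SE from limma. AT2G28790, ATLP-1, AT4G38660 and AT1G73620 have values of 2.65, 1.81, 1.23 and 0.80 at stage 1.14 and values under 0 at stage 1.05, while OSM34 is above 0 at both stages.

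AT4G38660 and AT1G73620 also shared the stage pattern of AT2G28790 and ATLP-1. In Col-0 they fell in the older rosettes, to 15.4% and 19.5% of the stage 1.05 mean (log2 changes -2.37 ± 0.28 and -1.76 ± 0.14, limma adjusted p = 4.07e-05 and 4.18e-06). In SPH1 RNAi they stood at 68.6% and 66.7%, or 46.0% and 59.1% without replicate 1 of stage 1.14, and did not pass (log2 changes -0.60 ± 0.28 and -0.47 ± 0.14, limma adjusted p = 0.177 and 0.0581). Without replicate 1 of stage 1.14, the array that stood apart, both fell in SPH1 RNAi too, by 1.00 and 0.59 on the log2 scale (limma adjusted p = 0.00932 and 0.0314). At stage 1.05 both were lower in SPH1 RNAi on every array without passing over all arrays. AT4G38660 had 259.0, 184.2 and 224.6 in SPH1 RNAi, against 381.7, 265.6 and 342.5 in Col-0 (limma adjusted p = 0.314). AT1G73620 had 84.2, 72.3 and 69.9 in SPH1 RNAi, against 116.4, 123.5 and 96.5 in Col-0 (limma adjusted p = 0.0785, and 0.0442 without SPH1 RNAi at stage 1.14 replicate 1). Such a separation downwards was found in 11.7% of all tested probe sets. The change of the genotype difference between the stages was itself tested for the 9 loci, as a test added after the data were seen. It passed for AT1G73620 (1.28 ± 0.20 on the log2 scale, limma adjusted p = 0.00929) and for AT4G38660 (1.76 ± 0.39, limma adjusted p = 0.0343), both higher at stage 1.14, and for 0 in the other direction. Over all tested probe sets 3.36% passed, 1.48% higher and 1.88% lower. For AT4G38660 this call was lost when any of 8 single arrays was left out (limma adjusted p up to 0.0877), among them each Col-0 array and SPH1 RNAi at stage 1.05 replicates 2 and 3. It was also lost with no filter on dim probe sets (limma adjusted p = 0.0662). AT4G38670, the direct neighbour of AT4G38660 in gene order, kept to between 35.3 and 58.6 on all 12 arrays.

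At stage 1.05, 1 of the 9 loci rose and 0 fell in SPH1 RNAi, where 4.57% of all tested probe sets rose and 0.762% fell. This was AT4G18250, with 52.9, 41.7 and 29.8 in SPH1 RNAi, against 14.1, 3.5 and 4.1 in Col-0. Its log2 change was 1.32 ± 0.20 (limma adjusted p = 0.00202), and its adjusted p stayed at 0.0146 or below with any single array left out. The size depended on the added constant, at 2.56 with 1 and 0.56 with 64 in place of 16, both passing. Its Col-0 signals were as dim as those of OSM34, and the part of the array background, which did not overlap between the genotypes, was not tested here either. At stage 1.14 it had 99.5, 90.1 and 114.7 in SPH1 RNAi, against 87.4, 59.9 and 74.5 in Col-0, which did not pass (0.39 ± 0.20, limma adjusted p = 0.27). Like OSM34 it rose with stage in each genotype, by 1.05 ± 0.20 in SPH1 RNAi and 1.97 ± 0.20 in Col-0 (limma adjusted p = 0.00921 and 1.7e-05). With 1 in place of 16 added before the log2, the RNAi stage change did not pass (limma adjusted p = 0.0561).

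With growth stage in Col-0, 5 of the 9 loci rose, 2 fell and 2 did not pass, where 23.7% of all tested probe sets rose and 21% fell. Those that rose were AT4G18250, AT1G75800 (1.91 ± 0.25), AT1G20030 (1.78 ± 0.40), AT4G36010 (1.61 ± 0.32) and AT5G24620 (0.69 ± 0.22), with limma adjusted p from 1.7e-05 to 0.0208. In limma AT5G24620 did not pass without Col-0 at stage 1.05 replicate 3 or at stage 1.14 replicates 2 or 3 (adjusted p = 0.0814, 0.0611 and 0.0564). In SPH1 RNAi 3 rose, AT4G36010 (1.56 ± 0.32), AT1G75800 (1.19 ± 0.25) and AT4G18250, and 0 fell, where 5.78% of all tested probe sets rose and 4.46% fell. In limma AT1G75800 lost this call in the fit of its 6 arrays (adjusted p = 0.0722), and AT1G20030 missed it at 1.31 ± 0.40 (adjusted p = 0.0561). In limma AT1G20030 passed without SPH1 RNAi at stage 1.14 replicate 1 (adjusted p = 0.03), SPH1 RNAi at stage 1.05 replicate 2 (0.0361) or Col-0 at stage 1.14 replicate 2 (0.0439). The stage comparisons share arrays with the genotype comparisons, so their values are set side by side only.

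**Figure D3:**
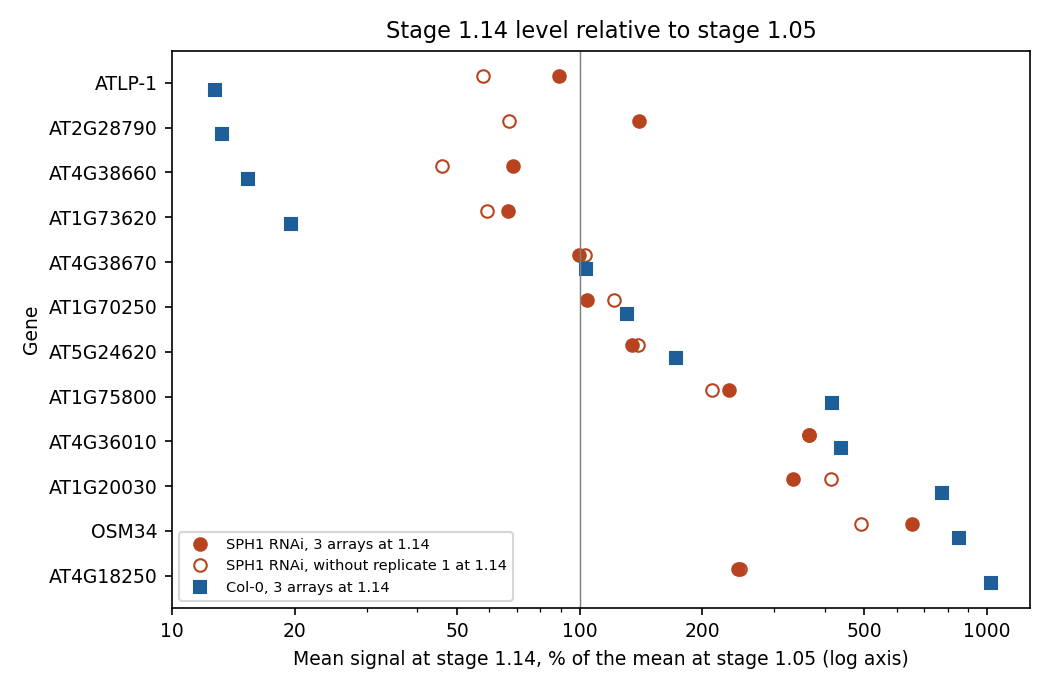
Mean signal at stage 1.14 as a percentage of the mean at stage 1.05 of the same probe set, on a log axis, for the 12 tested loci. Filled circles are SPH1 RNAi, open circles SPH1 RNAi without replicate 1 of stage 1.14, and squares Col-0. AT2G28790, ATLP-1, AT4G38660 and AT1G73620 lie at 12.7% to 19.5% in Col-0 and at 46.0% or above in SPH1 RNAi with or without replicate 1, while OSM34 lies above 100% in each genotype.

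Across the 12 arrays AT2G28790 and ATLP-1 followed each other, with Pearson's r = 0.948 of their log2 values, and 0.963 without SPH1 RNAi at stage 1.14 replicate 1. With the group means taken out, r was 0.861 over all 12 arrays. It was not computed without SPH1 RNAi at stage 1.14 replicate 1, the array furthest from its group mean in AT2G28790. How far this value rests on that array was not tested. OSM34 followed neither of them, with r = 0.00 to AT2G28790 and -0.19 to ATLP-1, and -0.37 and -0.45 without that array. The arrays share groups, so these correlations are descriptions. ATLP-1 had rank 13 for likeness to AT2G28790 when placed among the 7092 other tested probe sets of 1 gene, and AT4G38660 had rank 33 for likeness to ATLP-1 (r = 0.945) and rank 99 for likeness to AT2G28790 (r = 0.887).

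The 5 genes whose pattern over 12 arrays was most like AT2G28790 were AT1G62500, AT5G01870, AT1G53070, AT4G22490 and AT4G36180 (r from 0.964 to 0.990). The files give none of these 5 a gene name. For ATLP-1 they were AT4G22490, AT3G53190, AT4G15830, SBT1.3, a subtilisin-like protease, and AT3G02120 (r from 0.980 to 0.988), so AT4G22490 stands in both sets. Without SPH1 RNAi at stage 1.14 replicate 1 the leading gene of each set kept its place, AT1G62500 for AT2G28790 and AT4G22490 for ATLP-1, while the other 4 genes of the AT2G28790 set moved to ranks from 12 to 28. For OSM34 the 5 were AT5G62900, AT5G12420, AT1G62790, AT1G61065 and AT2G04620 (r from 0.931 to 0.955). Its likeness to AT4G18250 of its own family was 0.817 (rank 214). With the group means taken out, r of OSM34 to AT4G18250 was 0.03 over 12 arrays.

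Beta-glucosidase PYK10, which is abundant in roots, also moved with AT2G28790 and ATLP-1. PYK10 had 355.2, 39.4 and 61.3 in SPH1 RNAi at stage 1.14, against 21.4, 16.3 and 14.2 in Col-0, and 288.4 to 568.4 on the 6 arrays of stage 1.05. Between the genotypes at stage 1.14 PYK10 did not pass (limma adjusted p = 0.0593). With stage in SPH1 RNAi its log2 change was -1.79 ± 0.53 (limma adjusted p = 0.0487). There AT2G28790 was at 0.13 and ATLP-1 at -0.25, and 4.46% of all tested probe sets fell. The r of PYK10 over 12 arrays was 0.864 to AT2G28790 (rank 155) and 0.913 to ATLP-1 (rank 108). With group means taken out these were 0.957 and 0.799. The values with group means taken out include SPH1 RNAi at stage 1.14 replicate 1 and were not computed without it. Of the 11 root markers listed, 3 have a probe set for 1 gene, and the other 2, the root hair expansins EXPA7 and EXPA18, lay between 11.1 and 32.7 on all arrays. The sum of the 3 ranged from 95.6 to 394.8 in SPH1 RNAi at stage 1.14 and from 65.1 to 71.3 in Col-0, and at stage 1.05 from 328.5 to 582.8 in SPH1 RNAi and from 374.9 to 607.0 in Col-0. EXPA7 and EXPA18, with means of 21.3 and 26.2 over the arrays, were below the filter on dim signals, so the sums moved mainly through PYK10. The part of root tissue in these results was not tested. The sum of the leaf markers RCA and PRK was 4045.3 to 6296.1 in SPH1 RNAi at stage 1.14, lowest on replicate 1, and 4875.7 to 6712.0 in Col-0. The shoot apex markers UFO and CLV3, 2 of 10 listed, stayed at 4.7 or below on every array.

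**Figure D4:**
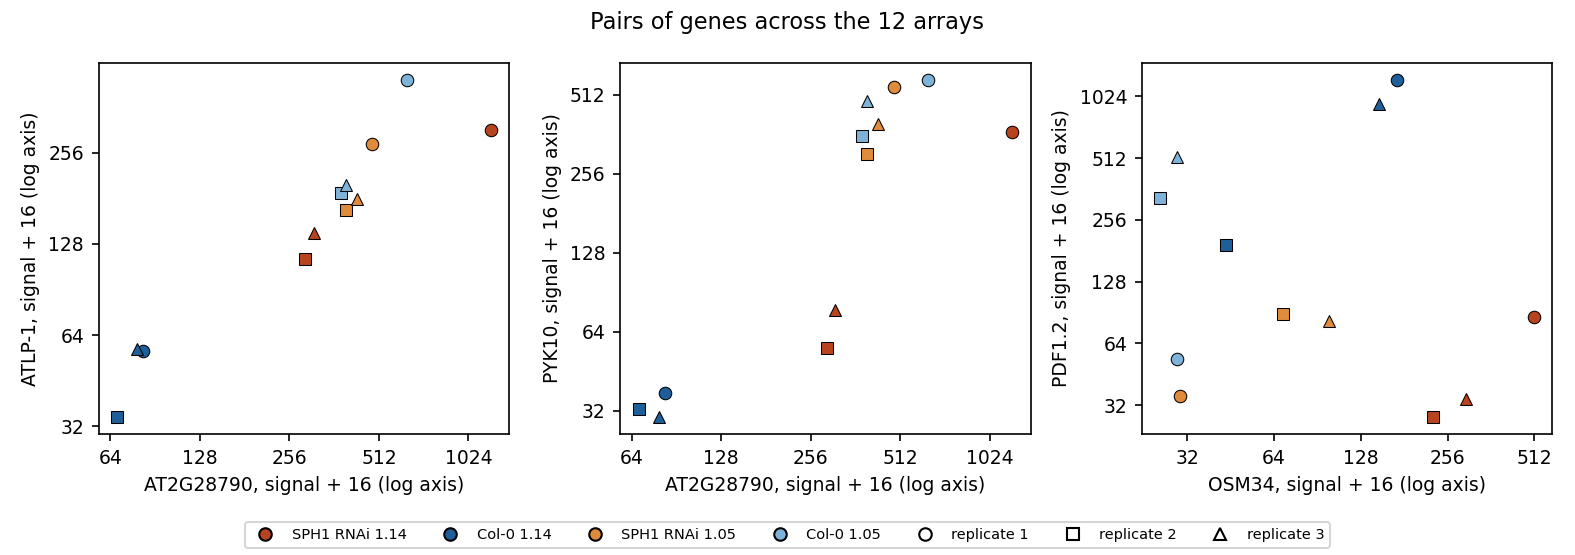
Signal plus 16 on log axes for ATLP-1 against AT2G28790 (left), PYK10 against AT2G28790 (middle) and PDF1.2 against OSM34 (right), with 1 point per array, coloured by genotype and stage and shaped by replicate. ATLP-1 follows AT2G28790 over all 12 arrays (r = 0.948), and PYK10 with r = 0.864. OSM34 is above every Col-0 array in SPH1 RNAi at stage 1.14 where PDF1.2 is below every Col-0 array of that stage.

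Genes of the responses in which osmotin is known were set beside the members. Among salicylate and jasmonate defence genes, 3 of 19 were tested, and at stage 1.14 2 fell and 0 rose in SPH1 RNAi, both plant defensins, small antifungal proteins of jasmonate and ethylene responses, where 2.06% of all tested probe sets fell and 4.7% rose. PDF1.2 had 69.6, 12.0 and 18.2 in SPH1 RNAi, against 1214.1, 176.5 and 925.3 in Col-0, so at this stage its genotypes lay in the opposite order to OSM34. Col-0 replicate 2 was the lowest Col-0 array for both genes. At stage 1.05 1 of the 3 defence genes, GRX480, rose in SPH1 RNAi and 0 fell (1.00 ± 0.19, limma adjusted p = 0.00671). There 4.57% of all tested probe sets rose and 0.762% fell. GRX480 did not pass at stage 1.14 (0.26 ± 0.19, limma adjusted p = 0.426). Of the osmotic and abscisic acid response genes 4 of 18 were tested, COR47, COR15A, COR15B and LTI30. The other 14, among them RD29A and RAB18, are not analysed here. At stage 1.14 2 of the 4 fell and 0 rose in SPH1 RNAi (median log2 change -1.19, against 0.04 over all tested probe sets), while OSM34 was at 1.66. With stage in Col-0 all 4 rose (median 3.12), where 23.7% of all tested probe sets rose, and OSM34 was higher there too. At stage 1.05 none of these 4 passed in limma.

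Of the cell division genes 3 of 11 were tested, the Aurora kinases AUR1 and AUR2 and the replication helicase subunit PRL. With stage in Col-0 3 fell, by a median of 1.21 on the log2 scale, and in SPH1 RNAi 0 passed (median -0.22). Over all tested probe sets 21% fell with stage in Col-0 and 4.46% in SPH1 RNAi, so fewer falls in SPH1 RNAi were seen array-wide. At stage 1.14 1 of the 3, PRL, rose in SPH1 RNAi (median 0.68), where 4.7% of all tested probe sets rose, and at stage 1.05 0 passed. AT2G28790 and ATLP-1 had the same signs in the stage comparison in Col-0 and at stage 1.14.

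The nearest tested genes within 10 loci on either side of the members were compared at stage 1.14. None passed in limma (adjusted p from 0.102 to 0.995), where 6.76% of all tested probe sets passed. AT2G28810, after AT2G28790, had 75.9, 72.3 and 63.8 in SPH1 RNAi at stage 1.14, against 78.2, 85.7 and 86.3 in Col-0. Beside ATLP-1, AT1G18210 had 437.8, 331.1 and 407.6 in SPH1 RNAi at stage 1.14, against 405.8, 393.6 and 368.0 in Col-0, and AT1G18270 had 130.8, 91.4 and 95.7 against 130.0, 119.2 and 111.6. Beside OSM34, SR had 55.8, 39.8 and 46.9 in SPH1 RNAi, against 49.4, 38.3 and 44.7 in Col-0. AT4G11670, on the other side of OSM34, had 128.1, 87.8 and 119.4 in SPH1 RNAi, against 62.3, 74.3 and 73.6 in Col-0. It was higher on all 3 RNAi arrays, as OSM34 was, with a log2 change of 0.56 ± 0.19. Such a separation was found in 17.9% of all tested probe sets. AT2G28810 was lower on all 3 RNAi arrays, as were 10.3% of all tested probe sets. AT2G28780, before AT2G28790, was too dim to test.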

How the data were processed

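The deposited intensity values are linear signals for 22810 probe sets on 12 arrays, scaled by the authors to a common level, since the mean after trimming 2% at each end is nearly equal on every array. The labels do not name the software that made them. Genes were named from the platform annotation and the RefSeq gene table. After 64 control probe sets were left out, 16 was added and log2 taken. The 13263 probe sets with a mean of at least 32 over all arrays were tested with limma 3.58.1 in R 4.3.3 (4 group means, 8 residual degrees of freedom, Benjamini-Hochberg adjustment, threshold 0.05), and the fit was tested on simulated data. Likeness is Pearson's r of log2 values.

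The members and the gene lists were chosen with earlier results of these data known. Which loci belong to the family comes from the hand-written list, since the deposited annotation does not state it. The text names the members, every tested family gene, the 5 genes most like each member, the nearest tested neighbours, and genes of the other lists. The test of the genotype difference between stages, the correlation with group means taken out and the calls of family genes that missed the threshold under each alternative were added after the data were seen. Alternatives were the added constant, the filter, quantile normalization, array weights, the 6 arrays of a comparison alone, the replicate number as a block and leaving out each array. Whether replicate numbers pair the arrays was not settled, and the main fit took the arrays as unpaired.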

Additional observations from a re-analysis of the deposited data

Results flagged for a closer look

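The genotype difference of 2 family genes differed between the growth stages by limma's test of that difference, SPH1 RNAi minus Col-0 at stage 1.14 less the same at stage 1.05. It was 1.28 for AT1G73620 and 1.76 for AT4G38660 on the log2 scale. With single arrays left out it ranged from 1.16 to 1.38 for AT1G73620, which passed each time, and from 1.37 to 1.99 for AT4G38660, which did not pass in 8 of the 12 cases, nor with no filter on dim probe sets (limma adjusted p = 0.0662). AT1G73620 was higher in SPH1 RNAi on every array at stage 1.14 and lower on every array at stage 1.05, and so was AT4G38660.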

How the results depend on the processing

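Counts of probe sets that passed were 707 and 896 between genotypes at stages 1.05 and 1.14, 1358 and 5919 between stages in SPH1 RNAi and Col-0, and 446 for the difference between the stages. Array weights gave 1753 at stage 1.05 (69.9% higher, against 85.7%), 3345 at stage 1.14 (59.1%, against 69.5%) and 2137 for the difference. No filter on dim probe sets gave 236 for the difference. The 6 arrays of a comparison alone gave 154 at stage 1.14 and 462 with stage in SPH1 RNAi. With single arrays left out the counts ranged from 365 to 1060, 376 to 1102, 669 to 1501, 4665 to 6439 and 119 to 705 in the order above. Whether the replicate numbers pair the arrays was not settled. By deviations from the group means, 5 of 12 arrays correlated best with their own number in the other groups. Among pairs of arrays with the same number, 7 of 18 had r over 0.1, against 7 of 36 among the other pairs. The replicate block gave 731, 998, 1362, 5941 and 523, and changed 2 calls among the family genes and members: with stage in SPH1 RNAi AT1G20030 rose (1.31, limma adjusted p = 0.0211) and AT1G73620 fell (-0.47, limma adjusted p = 0.0471). Under array weights and quantile normalization AT1G73620 passed as lower in SPH1 RNAi at stage 1.05 (limma adjusted p = 0.02 and 0.035) and with stage in SPH1 RNAi (0.0203 and 0.0338). Array weights, but not quantile normalization, also added AT1G70250 (0.65) and AT1G75800 (-0.77) at stage 1.14. With stage in SPH1 RNAi they added AT1G20030 (1.38) and AT4G38660 (-0.85), and for the difference AT1G75800 (-0.90) and AT4G18250 (-0.86). That difference also passed without SPH1 RNAi at stage 1.05 replicate 1 for AT1G75800 (-1.05) and without Col-0 at stage 1.05 replicate 1 for AT4G18250 (-1.13). The calls of AT1G75800 at stage 1.14, and of AT1G20030 and AT4G38660 with stage in SPH1 RNAi, were also made with certain single arrays left out.

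For the members, array weights turned AT2G28790 with stage in SPH1 RNAi to -0.31 and put OSM34 at stage 1.05 past the threshold at 1.38. Quantile normalization turned AT2G28790 at stage 1.05 to 0.001. With 1 added before the log2, OSM34 with stage in Col-0 was 2.67, and with 64 added it was 1.05, while ATLP-1 was 1.19 at stage 1.14 and -1.67 with stage in Col-0. The causes were not tested, except that a larger constant shrinks changes of dim signals by construction. With single arrays left out, AT2G28790 ranged from -0.20 to 0.17 at stage 1.05, 1.98 to 3.01 at stage 1.14, -0.54 to 0.49 with stage in SPH1 RNAi and -2.72 to -2.35 in Col-0. ATLP-1 ranged from -0.57 to 0.049, 1.39 to 2.1, -0.68 to 0.030 and -2.64 to -2.02, and OSM34 from 0.70 to 1.55, 1.03 to 2.02, 1.97 to 2.83 and 1.51 to 2.49, in the same order. OSM34 in young Col-0 leaves is near the dim end, and the part of background in its signal there was not tested.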

Other observations

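Within the groups the same replicate numbers were often at the extremes for AT2G28790 and ATLP-1. Replicate 2 had the lowest signal of both genes in each of the 4 groups. Replicate 1 had the highest signal of AT2G28790 in each of the 4 groups, and of ATLP-1 in 3 of 4, the exception being Col-0 at stage 1.14, with 40.6 on replicate 1 and 41.4 on replicate 3. OSM34 shared much of this, with replicate 2 lowest in 3 of 4 groups. It was at 211.8 in SPH1 RNAi and 27.5 in Col-0 at stage 1.14, and at 9.8 in Col-0 at stage 1.05. Replicate 1 was the highest for OSM34 in each genotype at stage 1.14 (492.8 and 154.8), and level with replicate 3 in Col-0 at stage 1.05 (13.5). The exception was SPH1 RNAi at stage 1.05, where replicate 1 was the lowest array for OSM34 (14.3).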
